A study of Homo sapiens with 4 samples.

Results

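Imprinted genes are genes that are expressed mainly from the copy inherited from a single parent. A set of 35 of them was examined, taking every array probe that is not a control and whose gene name in the scanner files equals 1 of the 35 symbols. This gave 62 of 58185 probes, for 35 of the 43311 gene names analysed. The genes were grouped by the hg19 position of their probes, and members closer than 2 Mb on a chromosome were placed in the same cluster. There were 18 clusters, 8 with more than 1 member and 10 with a single member.

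MDS-L cells, a line established from a patient with a myelodysplastic syndrome, were compared with MDS-L/CDA cells, their derivative that resists 5-azacytidine (AZA) after transduction of CDA, the gene of a deaminase that inactivates such cytidine analogues. Both lines grew with FBS, IL-3 and 2-mercaptoethanol and received AZA at 1 μM, or its vehicle of 0.1% DMSO, for 72 h, so that there were 4 groups of 1 array each. Titles write the dose as 1 mM. A further label field names the opposite treatment for the MDS-L AZA array and for the MDS-L/CDA vehicle array, whereas their titles, descriptions and source names give the groups used here. If that field were right, both MDS-L arrays would be vehicle and both MDS-L/CDA arrays AZA. With 1 array per group no difference has a replicate check, no test was made, and the spread between cultures is unknown.

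The level of a probe is its signal in multiples of the 75th percentile of its array, and a ratio is the quotient of 2 levels. Between 32.6% and 36.5% of the probes were flagged by the scanner software as well above background. Repeat spots of a probe, the only technical error these arrays show, give a log2 AZA/vehicle ratio an SD of 0.28 in the parental MDS-L line and 0.38 in the resistant MDS-L/CDA line, and give the vehicle comparison 0.30. This covers neither hybridization nor culture. A gene was called higher or lower when its brightest probe differed at least 2-fold, by its bound where 1 array of the pair was not well above background. The array of MDS-L cells with AZA differed most from the others, with SDs of log2 differences of 0.59 to 0.66 over 17809 probes. Among the other 3 arrays the SDs were 0.44 to 0.57, so the ranges nearly meet. Of 8 markers of myeloid blasts, all but MPO were well above background on every array, with summed levels of 164 to 201. The CDA probe was below background on all 4 arrays, the transduced line included. Whether this probe matches the transduced sequence was not checked, so its level does not show if the transduced gene was expressed.

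Imprinting is set in the germ line by DNA methylation at control regions, and DNMT1 copies these marks after each replication. AZA is incorporated into nucleic acids and traps DNMT1, so that methylation is lost as cells divide. In the cluster of chromosome 11, the control region near H19 is methylated on the paternal copy. H19, a long noncoding RNA, is expressed from the maternal copy and IGF2, a growth factor gene, from the paternal one. Further along, the promoter of KCNQ1OT1 is methylated on the maternal copy, and the noncoding KCNQ1OT1 transcript is made from the paternal copy, where it silences CDKN1C, PHLDA2, SLC22A18 and KCNQ1 in many tissues. The arrays measured the total RNA of a gene and did not separate the parental copies.

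The noncoding RNAs H19, KCNQ1OT1 and MEG3 carry the largest differences or the largest disagreements between probes, so the 60-base sequences of their measured probes are given first, as the array design lists them, in lower case throughout. The H19 probes lie on the minus strand of hg19 at chr11:2016674-2016733 and chr11:2016961-2017020, the KCNQ1OT1 probes on the minus strand at chr11:2696704-2696763 and chr11:2661803-2661862, and the MEG3 probes on the plus strand at chr14:101325072-101325131 and chr14:101327286-101327345. In each pair the brighter probe comes first.
H19, brighter probe: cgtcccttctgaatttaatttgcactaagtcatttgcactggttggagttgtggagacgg
H19, other probe: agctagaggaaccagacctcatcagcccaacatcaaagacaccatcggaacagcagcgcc
KCNQ1OT1, brighter probe: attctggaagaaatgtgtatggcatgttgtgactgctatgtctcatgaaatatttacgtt
KCNQ1OT1, other probe: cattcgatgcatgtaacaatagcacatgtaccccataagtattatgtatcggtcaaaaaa
MEG3, brighter probe: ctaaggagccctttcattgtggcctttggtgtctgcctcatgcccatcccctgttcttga
MEG3, other probe: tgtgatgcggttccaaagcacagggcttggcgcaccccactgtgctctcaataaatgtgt

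The brightest probe was well above background on at least 1 array for 24 of the 35 members (68.6%), as for 40.1% of all gene names, and on all 4 arrays for 22. The 11 members below background throughout were IGF2, DIRAS3, FAM50B, MKRN3, NDN, PEG10, RTL1, SGCE, ZDBF2, ZIM2 and TP73. All of these but TP73 are usually expressed from the paternal copy. By this textbook assignment, which was not measured here, 10 of 22 members listed as paternally expressed were undetected. So were 1 of 9 listed as maternally expressed and 0 of the 4 listed by isoform or tissue (GRB10, COPG2, BLCAP and GNAS). The list gives the copy usually expressed, and the imprinting of other members, such as UBE3A and INPP5F, also varies by tissue or isoform. Undetected members have only an upper limit, since the lowest level flagged as well above background was 0.190 on either MDS-L array and 0.272 and 0.296 on the MDS-L/CDA arrays.

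**Figure D1:**
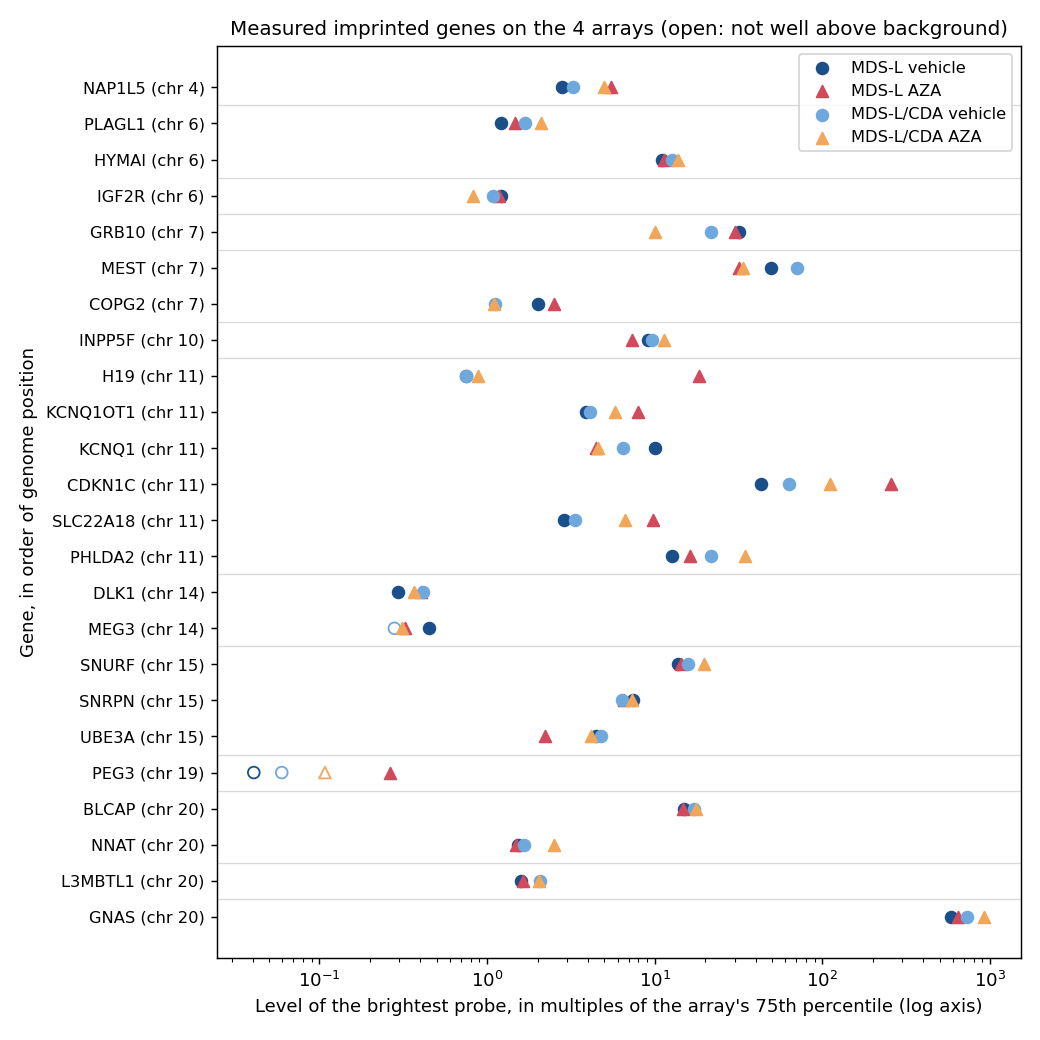
Levels of the brightest probe of each of the 24 measured imprinted genes (y axis, in genome order, with lines between clusters) in multiples of the 75th percentile of each array (x axis, log scale), 1 point per array, open where not well above background. There is no error bar because each group has 1 array. H19 stands at 18.3 with AZA in MDS-L cells and between 0.747 and 0.887 on the other arrays.

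In MDS-L cells AZA increased H19, CDKN1C, SLC22A18 and KCNQ1OT1 and decreased KCNQ1 and UBE3A. All of these but UBE3A lie in the cluster of chromosome 11. Of the 24 members measured on this pair of arrays, 4 (16.7%) were higher and 2 (8.33%) were lower, where 6.73% of 17172 measured genes were higher and 6.03% lower. The median log2 ratio was 0.05 over the members and -0.13 over all measured genes. The split of 4 higher and 2 lower members was 5 and 1 with quantile normalization or the authors' value table. With normexp background correction it was 3 and 1, and with each array scaled to its median 3 and 4. With the mean over the probes of a gene it was 6 and 0. That mean takes in probes below background, and its 6 include the dim members DLK1 (2.97) and PEG3 (2.05).

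H19, a maternally expressed RNA that hosts a microRNA, showed the largest difference among the members. The level of its brighter probe was 0.747 with vehicle and 18.3 with AZA in MDS-L cells, and 0.749 with vehicle and 0.887 with AZA in the resistant line. H19 was thus high on a single array, and the ratio was 24.6 in the parental and 1.18 in the resistant line. The other probe, whose sequence also stands above, read 0.411, 11.6, 0.513 and 0.915 on the same arrays, with ratios of 28.1 and 1.78. Both probes gave the same picture in MDS-L cells, where the ratio of the brighter probe was lowest with normexp (11) and highest with quantile normalization (27.4). IGF2, the reciprocally imprinted neighbour, was below background on all 4 arrays at both of its probes.

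CDKN1C encodes a cyclin-dependent kinase inhibitor. Its level was 42.9 with vehicle and 257 with AZA in MDS-L cells, and 63.2 with vehicle and 111 with AZA in MDS-L/CDA cells. Both AZA arrays were above both vehicle arrays, with ratios of 6.0 in the parental and 1.76 in the resistant line. SLC22A18, a transporter gene, had levels of 2.86 and 9.74 in the parental line and of 3.32 and 6.64 in the resistant line. Its arrays stood in the same order as those of CDKN1C, with ratios of 3.40 and of 1.997, the latter just under the 2-fold limit.

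KCNQ1OT1 had levels of 3.92 with vehicle and 7.92 with AZA in MDS-L cells at its brighter probe, and of 4.13 and 5.79 in the resistant line, for ratios of 2.02 and 1.40. The other probe read 1.30 and 6.53 in the parental line and 2.15 and 4.41 in the resistant line, for ratios of 5.02 and 2.05. At both probes the AZA arrays were above the vehicle arrays, by different amounts. The call at the brighter probe stood at the limit, and the ratio was 1.72 with normexp and 1.39 with median scaling.

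KCNQ1, a potassium channel gene within which KCNQ1OT1 is transcribed in the opposite direction, went the other way. Its level was 10.0 with vehicle and 4.49 with AZA in MDS-L cells, and 6.50 with vehicle and 4.59 with AZA in the resistant line. Both AZA arrays were below both vehicle arrays, with ratios of 0.449 and 0.706. The call in MDS-L cells was lost with the mean over both KCNQ1 probes (0.687), of which the other was below background on all arrays, and with the Z score added, under which no member was lower. PHLDA2, a gene that restrains placental growth, read 12.6 and 16.2 in the parental line and 21.6 and 34.3 in the resistant line, and its ratios of 1.28 and 1.59 passed no limit. Across the 6 measured members of this cluster the median log2 ratio was 1.39 in the parental and 0.58 in the resistant line. The ratio was above 1 for 5 of the 6 in each line, except that with median scaling PHLDA2 had 0.88 in MDS-L cells, which left 4.

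**Figure D2:**
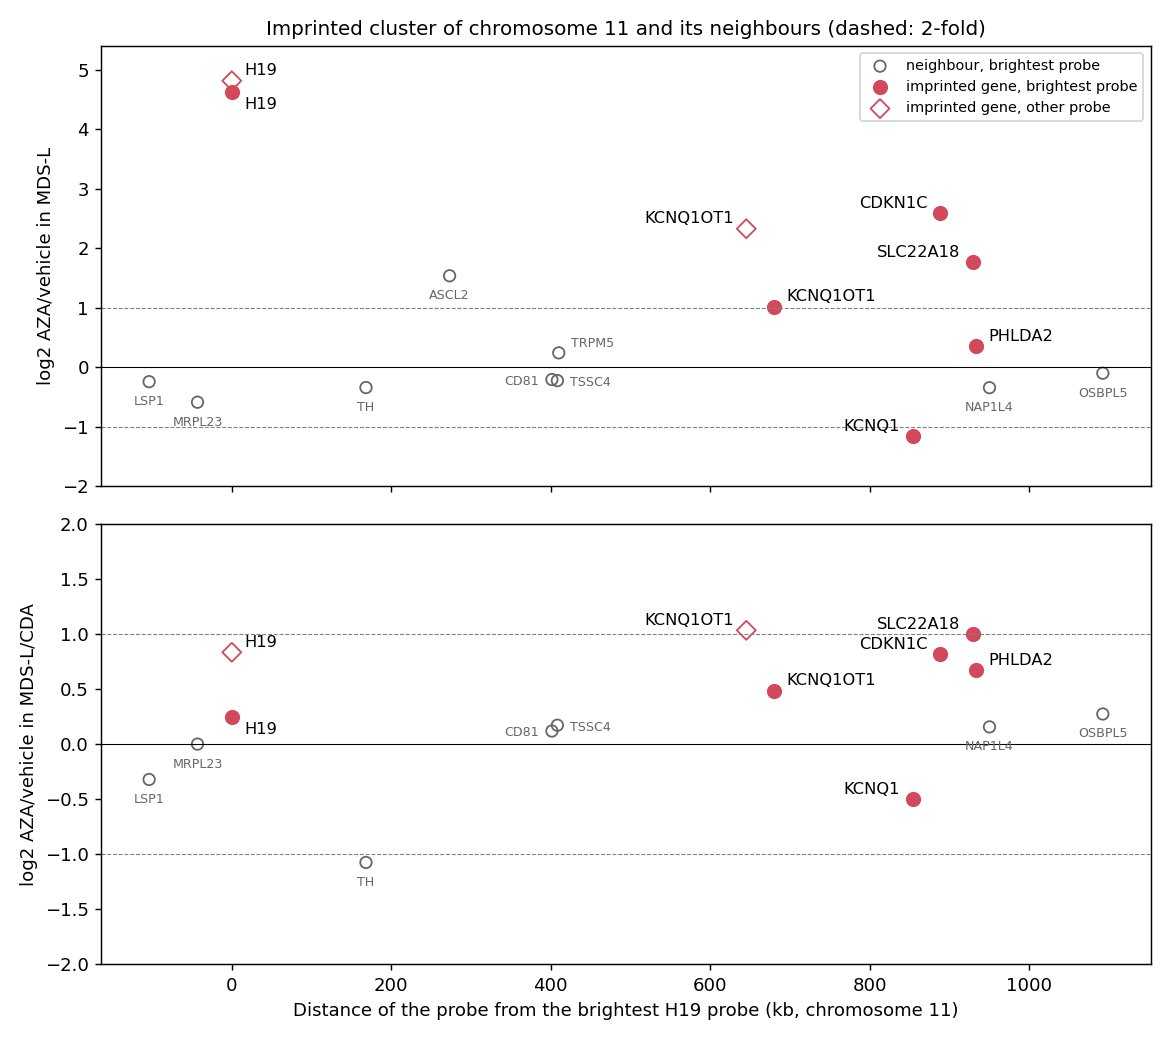
log2 AZA/vehicle ratio (y axis) against the distance of each probe from the brightest H19 probe on chromosome 11 (x axis, kb), in MDS-L cells (top) and MDS-L/CDA cells (bottom, on a narrower y range), for the measured probes of the imprinted genes and the brightest probe of each neighbour. Both H19 probes, both KCNQ1OT1 probes, CDKN1C and SLC22A18 lie above the 2-fold line in MDS-L cells, as does the neighbour ASCL2, while KCNQ1 lies below the lower line.

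Other genes in or beside the imprinted clusters, here called neighbours, were taken from a list of 71 on the array. INS, TH, ASCL2, CD81, TSSC4 and TRPM5 lie inside the chromosome 11 cluster, between H19 and the KCNQ1 probes. Whether neighbours are themselves imprinted was not assessed, so they are not a set of genes without imprinting. Of 11 on chromosome 11, 9 were measured in MDS-L cells, with a median ratio of 0.856, where the 6 members had 2.62. ASCL2, a transcription factor gene 273 kb from H19, was at least 2.90-fold higher, from below background to a level of 0.551, and was below background on both MDS-L/CDA arrays. The other 8 passed no limit, with ratios from 0.665 (MRPL23) to at least 1.18 (TRPM5). In the resistant line the median was 1.09 over 7 neighbours, and TH, the tyrosine hydroxylase gene, was lower.

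UBE3A, a ubiquitin ligase gene whose maternal copy is the active one in neurons, was the other decreased member in MDS-L cells. Its level was 4.47 with vehicle and 2.22 with AZA there, and 4.75 and 4.14 in the resistant line. The MDS-L AZA array was the low one, with a ratio of 0.496, and 0.871 in the resistant line. This call was at the limit and was lost with quantile normalization (0.530), the authors' value table (0.531), normexp (0.611) and the Z score. It was also lost with the mean over both UBE3A probes (0.712), of which the other was below background on all arrays. In the same cluster of chromosome 15, SNURF and SNRPN, which share a transcript and encode a small upstream protein and a splicing protein, had ratios of 1.05 and 0.879 in the parental and of 1.24 and 1.14 in the resistant line. Their levels were 13.7 to 19.6 and 6.38 to 7.46.

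NAP1L5, a paternally expressed gene of chromosome 4, was the member just under the limit in MDS-L cells. Its level was 2.80 with vehicle and 5.46 with AZA in MDS-L cells, and 3.26 and 4.96 in the resistant line. Both AZA arrays were above both vehicle arrays, with ratios of 1.95 and 1.52, and the former was 2.15 with quantile normalization. On chromosome 6, PLAGL1, a zinc finger transcription factor gene, had levels of 1.22 to 2.08 with ratios of 1.20 and 1.24, and HYMAI, a noncoding RNA of the same locus, had levels of 11.1 to 13.8 with ratios of 1.02 and 1.10. IGF2R, whose product clears insulin-like growth factor, had levels of 0.820 to 1.20 with ratios of 0.979 and 0.753. None of these passed the limit in either line.

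On chromosome 20, GNAS, which encodes the alpha subunit of the stimulatory G protein, was the brightest member. Its levels were 587 and 643 in the parental and 731 and 920 in the resistant line, with ratios of 1.10 and 1.26. The GNAS probes of its upstream, oppositely imprinted transcripts (chr20:57415463-57415522 and chr20:57430307-57430366) were below background on all arrays. BLCAP and NNAT, a host gene and the paternally expressed gene inside its intron, had ratios of 0.980 and 0.981 in MDS-L cells and of 1.03 and 1.5 in the resistant line. L3MBTL1, the gene of a chromatin-binding protein, had 1.02 and 0.982. PEG3, a paternally expressed zinc finger gene of chromosome 19, was above background on the MDS-L AZA array alone, at 0.264, which gives an increase of at least 1.39-fold, under the limit.

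By the textbook assignment, the 12 measured members listed as paternally expressed held 1 increase (KCNQ1OT1) and 0 decreases in MDS-L cells. Their median log2 ratio was 0.05. The 8 listed as maternally expressed held 3 increases (H19, CDKN1C and SLC22A18) and 2 decreases (KCNQ1 and UBE3A), with a median of 0.16. UBE3A was counted among them, although its imprinting is known from neurons and was not measured in these cells. The 4 members listed by isoform or tissue held neither. All 4 increases and the decrease of KCNQ1 lay in the cluster of chromosome 11. Outside it, the maternally expressed IGF2R and MEG3 held no call at the brightest probe, and UBE3A held only its decrease. Parental copy and cluster therefore cannot be told apart in these counts. Over all measured genes 6.73% were higher and 6.03% lower.

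Markers of another cell type moved on the same array. The summed level of the T cell markers CD3E, CD3D and CD2 was 0.440 with vehicle and 5.80 with AZA in MDS-L cells, and 0.412 and 0.670 in the resistant line, with 0, 2, 0 and 1 of the 3 well above background. CD3D rose at least 23.5-fold and CD2 at least 5.94-fold in MDS-L cells, while CD3E was below background throughout. Of the 7 measured myeloid blast markers in MDS-L cells, the receptor gene KIT rose, with a ratio of 47.3 (3.58 in the resistant line), and CD38, an ectoenzyme gene, fell, with a ratio of 0.359 (0.725 in the resistant line). The other 5 had ratios of 0.728 (CD34), 0.758 (PTPRC), 0.781 (SPI1), 0.896 (ANPEP) and 1.30 (CD33) in MDS-L cells. The epithelial sum was 6.63 to 9.56 with EPCAM below background, and all 3 stromal markers were below background. The part of these differences in the results for imprinted genes was not tested. A change in which cells make up a culture and a change in RNA per cell cannot be told apart in bulk RNA.

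In MDS-L/CDA cells AZA increased 0 of the 23 measured imprinted genes and decreased 2 (8.70%), MEST and GRB10. Over 15393 measured genes, 2.53% were higher and 3.07% lower. The median log2 ratio was 0.19 over the members and 0.02 over all genes, and 15 of the 23 had a ratio above 1.

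MEST, a paternally expressed gene of the hydrolase family, had levels of 49.4 with vehicle and 32.0 with AZA in MDS-L cells, and of 70.3 with vehicle and 33.7 with AZA in the resistant line. Both AZA arrays lay below both vehicle arrays, with ratios of 0.647 and 0.479. The ratio in the parental line was 0.445 with median scaling, past the limit, and 0.767 with quantile normalization. COPG2, a coat protein gene whose end lies over that of MEST in the opposite direction, had levels of 2.00 and 2.49 in the parental and of 1.11 and 1.10 in the resistant line, with ratios of 1.24 and 0.988.

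GRB10, an adaptor gene that dampens insulin and growth factor signalling, had levels of 31.7 and 30.1 in the parental and of 21.6 and 10.1 in the resistant line at its brighter probe, with ratios of 0.95 and 0.468. The other probe read 18.1 and 21.4 in the parental and 21.6 and 19.1 in the resistant line, with ratios of 1.18 and 0.885. The probes lie beside each other on hg19 (chr7:50657813-50657872 and chr7:50657752-50657786) and disagreed on the MDS-L/CDA AZA array, so the decrease rests on 1 of 2 probes and was lost with their mean (0.643).

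**Figure D3:**
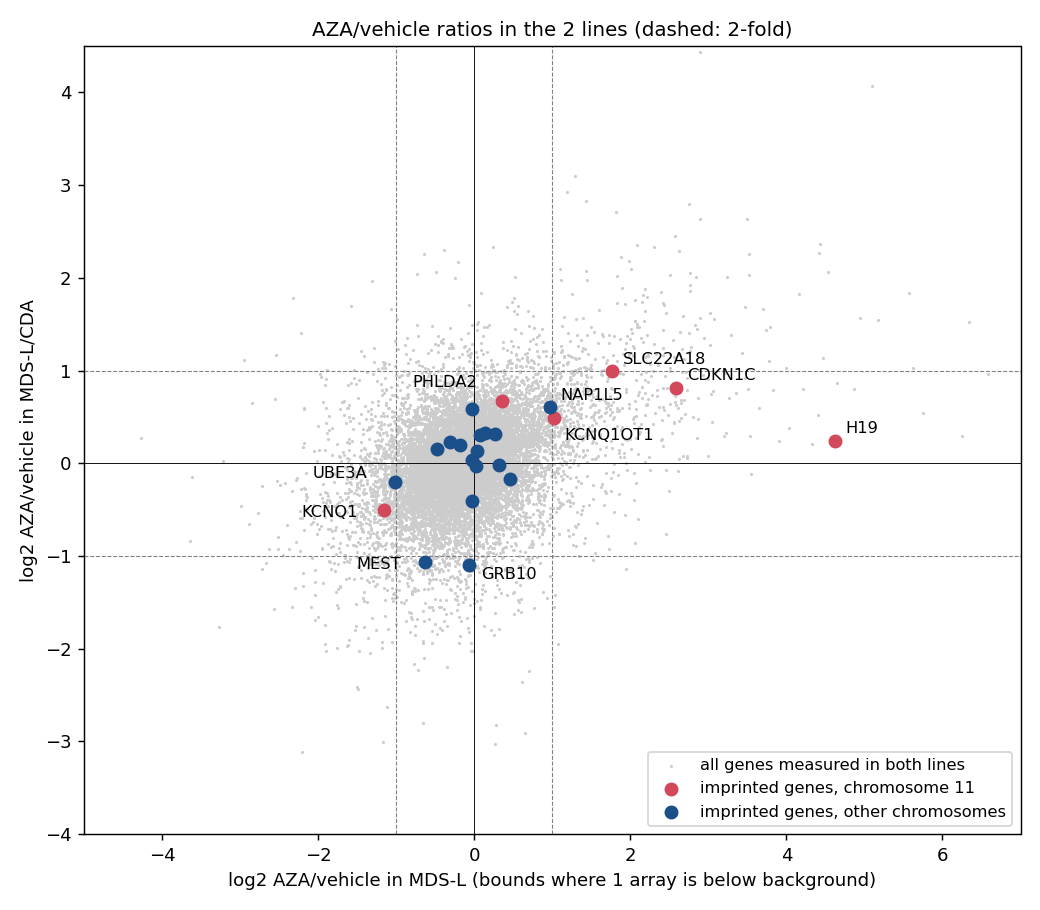
log2 AZA/vehicle ratio of MDS-L cells (x axis) and of MDS-L/CDA cells (y axis) for the brightest probe of the 23 imprinted genes measured in both lines, over 15211 genes in grey, with 1 further gene outside the axes. Dashed lines mark 2-fold. H19 lies far to the right, at 4.62 in MDS-L and 0.24 in MDS-L/CDA cells, and MEST and GRB10 lie below the lower dashed line.

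Within the chromosome 11 cluster, the ratio was nearer to 1 in the resistant than in the parental line for H19, CDKN1C, SLC22A18, KCNQ1OT1 and KCNQ1, and farther from 1 for PHLDA2. These differences between the lines were not tested, since each ratio rests on a single pair of arrays.

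Of 14 members with more than 1 probe, 9 had more than 1 measured. MEG3, a maternally expressed noncoding RNA, had 0.449 with vehicle and 0.322 with AZA in MDS-L cells at its brightest probe, a ratio of 0.718. Its second measured probe, toward the end of the gene, went from below background to 0.486, at least 2.56-fold higher, and 5 further probes were below background on all arrays. The direction for MEG3 therefore depended on the probe. DLK1, a Notch-related ligand gene of the same cluster, had levels of 0.295 to 0.415, close to the background limit, with ratios of 1.37 and 0.886 at its brightest probe and of at least 1.46 in the parental line at the other.

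INPP5F, a phosphatase gene with an imprinted short transcript, had levels of 9.14 and 7.34 in the parental and of 9.61 and 11.3 in the resistant line at its brightest probe, with ratios of 0.803 and 1.18. Its other probes had ratios of 0.598 and at most 0.401 in MDS-L cells, the latter from a probe that was below background with AZA. In the resistant line these probes had 0.673 and 0.923, below 1 where the brightest probe was above it. Which of the INPP5F probes read the imprinted short transcript was not assessed. L3MBTL1 had 1.02, 0.819 and at most 0.663 in MDS-L cells by probe. In the same cells the measured GNAS probes gave 1.10, 1.08 and 1.25 and those of BLCAP 0.980 and 1.14, which differ within each gene by less than the SD of a ratio from repeat spots.

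**Figure D4:**
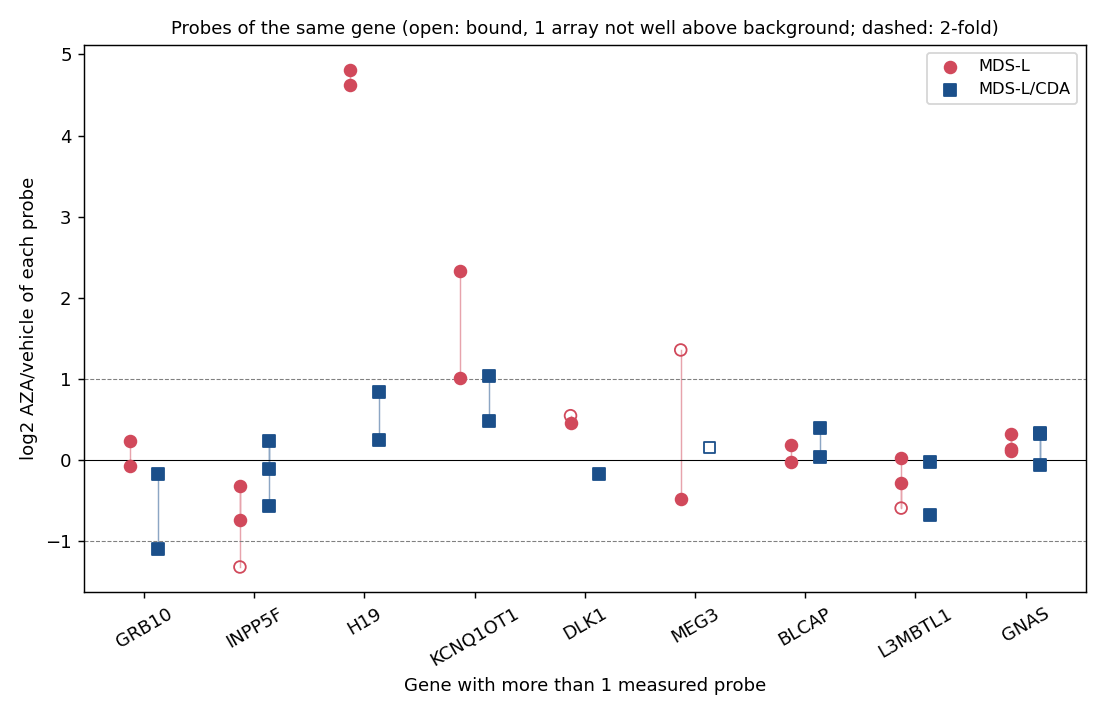
log2 AZA/vehicle ratio (y axis) of the 21 measured probes of the 9 imprinted genes with more than 1 (x axis), for the parental (MDS-L) and the resistant (MDS-L/CDA) line. Open symbols are bounds because 1 array was not well above background. The H19 probes lie at 4.62 and 4.81 in MDS-L cells, while the KCNQ1OT1, GRB10 and MEG3 probes lie apart.

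The vehicle arrays, which the AZA comparisons share, show how the lines differed without AZA. None of the 23 measured imprinted genes differed 2-fold between MDS-L/CDA and MDS-L cells, where 1.97% of 16015 measured genes were higher and 2.64% lower. The ratio of the resistant to the parental line was 0.555 for COPG2, 0.65 for KCNQ1, 0.681 for GRB10, 1.42 for MEST and 1.71 for PHLDA2, and 1.00 for H19. It was above 1 for 17 of the 23 members, with a median log2 ratio of 0.18 where all genes had 0.06. This direction depended on the scaling, since 2 of 23 were above 1 with median scaling and 6 without scaling.

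Of 23 regulators of imprinting and DNA methylation on the array, 18 were measured in MDS-L cells, where 3 (16.7%) were lower and 0 higher with AZA, against 6.03% and 6.73% of all measured genes. UHRF1, which recruits DNMT1 to newly replicated DNA, had a level of 25.2 with vehicle and 11.4 with AZA, a ratio of 0.453, and 0.847 in the resistant line. DNMT3B, a de novo methyltransferase gene, had ratios of 0.463 and 0.920, and SMC3, a cohesin subunit gene, had 0.251 and 1.10. The ratios of UHRF1 and DNMT3B in MDS-L cells lie near the 2-fold limit. For the regulators only the brightest probe under the main processing is given here. The 18 measured in MDS-L/CDA cells held no call, where 3.07% of all genes were lower and 2.53% higher. DNMT1, the maintenance methyltransferase gene, had levels of 8.46 and 6.76 in the parental and of 8.96 and 9.98 in the resistant line, with ratios of 0.799 and 1.11. Between the vehicle arrays, KDM1B, a histone demethylase gene needed for maternal imprints, was 2.09-fold higher in the resistant line.

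Over all clusters, 31 neighbours were measured in MDS-L cells, of which 1 (3.23%) was higher and 2 (6.45%) were lower, near the 6.73% and 6.03% of all genes. ASCL2 was higher, and CEP41 (0.437), near MEST, and FIGNL1 (0.279), near GRB10, were lower. Of 28 measured in the resistant line, DDC (2.26), also near GRB10, was higher, and CTSZ (0.301), NIPA2 (0.342) and TH (0.475) were lower, which is 3.57% and 10.7% where all genes had 2.53% and 3.07%.

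Sequences before a listed start site of H19 and HYMAI are given, labelled promoter below. Both are noncoding genes in imprinted loci. They were picked because, with AZA in MDS-L cells, H19 had the largest increase of any member (24.6-fold) and HYMAI a ratio near 1 (1.02). Each run is the 250 bases before the only RefSeq start site listed for the gene, on the minus strand of GRCh38.p14. The runs lie at chr11:2001267-2001516 for H19 and chr6:144008260-144008509 for HYMAI. Whether the transcripts that the probes measure start at these sites was not checked. A run therefore need not be the promoter of the RNA measured. Probe positions are on hg19 and the runs on GRCh38.p14, and the distance between them was not worked out. Capitals mark each CG, the dinucleotide that DNA methyltransferases modify, which reads the same on both strands.
H19 promoter: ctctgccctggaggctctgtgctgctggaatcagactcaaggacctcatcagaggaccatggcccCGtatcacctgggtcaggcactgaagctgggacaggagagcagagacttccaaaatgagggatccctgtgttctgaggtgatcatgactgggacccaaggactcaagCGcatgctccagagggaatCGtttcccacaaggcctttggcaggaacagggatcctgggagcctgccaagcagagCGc
HYMAI promoter: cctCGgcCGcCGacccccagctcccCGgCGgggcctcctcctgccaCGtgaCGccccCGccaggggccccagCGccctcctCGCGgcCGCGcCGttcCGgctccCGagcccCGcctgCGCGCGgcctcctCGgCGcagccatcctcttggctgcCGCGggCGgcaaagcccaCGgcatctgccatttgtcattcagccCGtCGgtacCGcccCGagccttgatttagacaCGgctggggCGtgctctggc

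The H19 window held 4 CG and the HYMAI window 32. Over 34943 such windows of all genes the median was 11, 93.9% held at least 1, 34.4% held 4 or fewer and 9.51% held 32 or more. A window was listed for 23 of the 35 members, with 54 windows and a median of 16 CG. The 12 without one were CDKN1C, SLC22A18, KCNQ1OT1, KCNQ1, PHLDA2, IGF2, DLK1, PEG3, ZIM2, PEG10, SGCE and NNAT. Of the members increased in MDS-L cells, H19 alone had a window, so the counts do not compare increased with unchanged members. Methylation was not measured on these arrays, and the count of CG is a description of the letters alone.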

How the data were processed

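Total RNA of 4 cultures was hybridized to 4 one-colour (Cy3) Agilent arrays, 1 per group, on 1 slide. The authors deposited the scanner output of Agilent Feature Extraction 10.7.1.1, in which the intensity of each spot is background-subtracted and detrended within the array but not normalized between arrays, and a value table of 51680 probes whose intensity columns have nearly equal distributions. How that table was made is not given in the sources used here.

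Control spots and 16 probes flagged as outliers were removed. Repeat spots of a probe were averaged as log2 signals, from which the array's own 75th percentile was taken away. Genes with several probes were represented by the brightest, by mean log2 level over the 4 arrays. Where 1 array of a pair was not well above background, its level was replaced by the higher of its own and the lowest level well above background there, and the ratio is a bound. No fold is given where both were below. The study's rule adds a Z score of at least 2 to the 2-fold ratio without its formula, so the Z score was an alternative. The code that makes the calls was run on simulated arrays with known changes, which checks the code and not the calls. A further marker list is not reported here.

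Members, lists and the naming rule (every member measured on at least 1 array, DNMT1, and regulators or neighbours called in 1 comparison) were chosen with earlier results of these data known. The 10 alternatives were 5 other normalizations or value sources, a stricter background filter, a limit of 1.5-fold, the Z score and 2 other rules for several probes. Promoter sequences are from RefSeq (GRCh38.p14), and probe positions are hg19 per the file headers. The normexp correction (offset 50) ran in limma 3.58.1 under R 4.3.3, and all else in Python 3.11.15 with pandas 2.3.3, numpy 2.4.6 and matplotlib 3.10.9.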

Additional observations from a re-analysis of the deposited data

How the results depend on the processing

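No paired analysis was possible because each group has 1 array, and for the same reason no replicate could be left out. H19, CDKN1C and SLC22A18 kept at least a 2-fold increase in MDS-L cells under all 6 alternatives that recompute the ratio. The count of higher members there (4) was between 3 and 6 under all 10 alternatives. The count of lower members in MDS-L cells (2) was 0 with the Z score and with the mean over probes, 1 with quantile normalization, normexp and the authors' value table, and 4 with median scaling. In MDS-L/CDA cells the count of higher members (0) was 4 at a 1.5-fold limit and 1 when any probe sufficed, and that of lower members (2) was 1 with the mean over probes. Between the vehicle arrays, the count of higher members (0) was 1 at 1.5-fold, and that of lower members (0) was 3 at 1.5-fold, 4 with median scaling, 2 without scaling and 1 with normexp. Median scaling moved the median log2 ratio of all genes by -0.54 in MDS-L cells and -0.50 between vehicle arrays, quantile normalization and the value table by 0.11 in MDS-L cells, and no scaling by -0.34 between vehicle arrays and -0.13 in MDS-L/CDA cells. The count of all genes lower in MDS-L cells (1036) was 4328 with median scaling, 428 with normexp and 440 with the Z score. That of genes higher (1155) was 376 with normexp and 2426 at 1.5-fold. In MDS-L/CDA cells the count of all genes higher (389) was 1435 at 1.5-fold and 476 when any probe sufficed. That of genes lower (472) was 549 with the mean over probes. Between the vehicle arrays, 316 genes were higher, and 1275 at 1.5-fold. There 423 were lower, with 1251 at 1.5-fold, 1693 with median scaling, 1093 without scaling and 245 with normexp. Signal over background limits dim members such as PEG3, DLK1 and MEG3 to bounds or levels near the limit, and the cause of the differences between alternatives was not tested.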
